A study of Homo sapiens and Mus musculus with 27 samples.

Results

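The genes described here encode aminoacyl-tRNA synthetases, the enzymes that attach each amino acid to its transfer RNA. They were chosen by name: 19 cytosolic synthetases (gene names ending in ARS1, with EPRS1, FARSA and FARSB) and 16 mitochondrial ones (names ending in ARS2). These 35 genes were found among 78932 features in each human count table and, as orthologs under older names such as Hars for HARS1, among 25239 in the mouse table. Poly(A) RNA-seq counts were available for 27 libraries in 9 groups of 3, which the labels call biological replicates.

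HCC1937, a BRCA1-mutant human breast cancer line, was given vehicle, TM at 10 µM, or AMD3100 at 10 µM. MDA-MB-231, a triple-negative human breast cancer line, received vehicle or 10 nM bortezomib together with either 10 µM TM or 10 µM AMD3100. Mouse tumours of the mammary carcinoma line 4T1 were taken from Balb/c animals given vehicle, bortezomib at 1 mg/kg every 4 days with TM at 0.05 mg/ml in drinking water, or the same bortezomib with AMD3100 at 5 mg/kg every 2 days. TM is the labels' abbreviation and is not expanded there. Bortezomib is a proteasome inhibitor that binds the subunit PSMB5, and AMD3100 is an antagonist of the chemokine receptor CXCR4. Since bortezomib was never given without a second agent, the share of each agent in a change cannot be told apart in those groups. The length of exposure was not given in the sources used here.

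Charging of transfer RNA by these enzymes supplies both translation systems of the cell. Cytosolic synthetases serve cytoplasmic ribosomes, and 7 of them (EPRS1, IARS1, KARS1, LARS1, MARS1, QARS1 and RARS1) sit in the multi-synthetase complex on scaffold proteins of the AIMP family. Mitochondrial synthetases are made from nuclear genes and serve the mitochondrial ribosome, while GARS1 and KARS1 each encode enzymes for both compartments. In the amino acid response, uncharged transfer RNA activates the kinase GCN2 (EIF2AK4), translation of the transcription factor ATF4 increases, and ATF4 binds composite CHOP, C/EBP and ATF elements near the promoters of genes for amino acid supply. Several cytosolic synthetase genes are known ATF4 targets, and WARS1 is also known to be induced by interferon-gamma.

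Promoter windows running from 250 bases before to 50 bases after each annotated start (RefSeq, GRCh38.p14) were held for 30 of the 35 genes, without AARS2, LARS1, VARS1, VARS2 and YARS1. They were searched on both strands for TGATGNAA, the core of the composite element, and for its stricter form TGATGCAA. TGATGNAA was present in 7 of 16 cytosolic genes with a window (43.8%), in 1 of 14 mitochondrial genes (7.14%) and in 4.46% of all 27305 genes with a window (3.62% of 35116 windows). TGATGCAA was present in 6 cytosolic genes (37.5%), in 0 mitochondrial genes, and in 1.08% of all genes (0.866% of windows). The sequence around 7 of the 8 matches is shown because the letters lie close to the start in most of these genes. Capitals mark the match, and TTGCATCA is the reverse complement of TGATGCAA:
AARS1: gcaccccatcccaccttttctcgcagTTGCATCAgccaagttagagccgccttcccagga
CARS1: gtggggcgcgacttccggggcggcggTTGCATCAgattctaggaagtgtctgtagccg
GARS1: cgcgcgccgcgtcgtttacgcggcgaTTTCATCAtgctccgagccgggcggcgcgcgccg
IARS1: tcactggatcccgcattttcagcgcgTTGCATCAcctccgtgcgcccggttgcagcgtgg
MARS1: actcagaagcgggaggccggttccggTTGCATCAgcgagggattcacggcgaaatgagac
TARS1: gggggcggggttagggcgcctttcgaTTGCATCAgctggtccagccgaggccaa
YARS2: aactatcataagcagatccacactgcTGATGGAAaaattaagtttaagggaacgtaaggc

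The matches began 187 bases before the start in AARS1 (chr16:70289660-70289719, minus strand), 2 before in CARS1 (chr11:3057394-3057451, minus) and 33 before in GARS1 (chr7:30594819-30594878, plus). They began 13 bases before the start in IARS1 (chr9:92293677-92293736, minus), 4 before in MARS1 (chr12:57488038-57488097, plus) and 197 before in YARS2 (chr12:32756061-32756120, minus). In TARS1 (chr5:33440941-33440994, plus) the match began 2 bases after the start. The NARS1 match, of the stricter form, began 14 bases after it. GARS1 and YARS2 hold the looser letters, and the other 6 genes hold the stricter form. SARS1, WARS1 and HARS1 had windows without either match. A match describes letters only, and binding was not measured.

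Total counts per library were 35981504 to 43973262 for HCC1937, 40389469 to 50283398 for MDA-MB-231 and 38407536 to 50735374 for 4T1. Levels are in CPM (read counts of a gene relative to the size of its library, the usual abundance unit of RNA-seq) after scaling within each table by the trimmed mean of M-values (TMM), a change is a log2 difference with its standard error (SE), and a gene is called at an adjusted p under 0.05 in edgeR's quasi-likelihood test with Benjamini-Hochberg adjustment over all genes tested. The HCC1937 library AMD3100 replicate 1 stood apart from the other 8: 19.9% of its counts fell on mitochondrially encoded genes against 10.5% to 11.6%, and 20639 genes had a count against at least 29335. HCC1937 results are therefore given with and without it. The library titled as 4T1 vehicle replicate 1 carries an MDA-MB-231 cell line label, while its title and column name 4T1, and it was used as 4T1. Of the lines' markers, KRT8 stood at 1842 ± 58.1 CPM in HCC1937 vehicle libraries and 334 ± 50.0 in MDA-MB-231 (SD, n = 3 each), VIM at 375 ± 5.10 and 943 ± 24.9, EPCAM at 0.0565 and 2.43, and CDH1 at 0.656 and 0.0238. EPCAM and CDH1 were thus hardly counted in HCC1937, and EPCAM was higher in MDA-MB-231, opposite in order to KRT8. The listed markers KRT18, CD44 and PTPRC are not given here. Line identity was not tested. CXCR4, the receptor that AMD3100 blocks, stood at 94.2 ± 7.53 CPM in HCC1937 vehicle libraries and had 0 counts in the 3 MDA-MB-231 vehicle libraries, which allows up to 0.0718 CPM.

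Levels in untreated cells were compared first, with the 6 vehicle libraries of both human lines scaled and fitted together. Per length, as RPKM (CPM divided by gene length in kilobases), the median cytosolic synthetase stood at 35 in HCC1937 and 24.8 in MDA-MB-231, and the median mitochondrial one at 6.67 and 9.57. The cytosolic range ran from HARS1 (6.63) to FARSA (125) in HCC1937 and from LARS1 (4.35) to VARS1 (138) in MDA-MB-231. The mitochondrial range ran from VARS2 (0.135) to IARS2 (51.3) in HCC1937 and from VARS2 (0.0937) to YARS2 (25.5) in MDA-MB-231. The deposited lengths sum all annotated exons of a gene, reaching 22418 bases in IARS1, 20639 in LARS1 and 17366 in GARS1, which lowers those genes' per-length values.

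Against HCC1937, 6 cytosolic and 6 mitochondrial members were higher in MDA-MB-231 and 9 and 4 were lower, beside 37% of all 18505 tested genes called higher and 42.2% called lower. With 25 of 35 members called, the share was close to that of all genes. EPRS1, which charges both glutamate and proline and forms part of the multi-synthetase complex, stood at 340, 350 and 361 CPM in HCC1937 vehicle libraries and at 46.0, 67.7 and 72.4 in MDA-MB-231, from lowest to highest, on the joint scaling. The difference of -2.50 ± 0.14 (log2, SE, adjusted p = 3.9e-09, edgeR) was the largest among the members, and no library of one line overlapped the other. TARS1, the threonyl enzyme, was lower by a similar margin in MDA-MB-231 (74.9, 106 and 136 CPM against 513, 528 and 540, difference -2.32 ± 0.16).

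NARS1, which charges asparagine, stood at 167, 169 and 174 CPM in HCC1937 and 32.7, 38.9 and 49.1 in MDA-MB-231 (difference -2.08 ± 0.13). The opposite order held for VARS1 (valine) at 276, 281 and 290 CPM against 732, 782 and 928, and for QARS1 (glutamine) at 159, 163 and 165 against 418, 445 and 493. Their differences were 1.53 ± 0.09 and 1.48 ± 0.08. KARS1 (lysine) was also higher in MDA-MB-231 (0.86 ± 0.08) and WARS1 (tryptophan) was lower (-0.39 ± 0.08). GARS1 (glycine) stood at 240 to 246 CPM in HCC1937 and 226 to 249 in MDA-MB-231, overlapping ranges with a difference of -0.04 ± 0.08 (adjusted p = 0.63, edgeR) that turned to 0.01 under median-of-ratios scaling. Of the mitochondrial enzymes, LARS2 (leucine), EARS2 (glutamate) and MARS2 (methionine) were higher in MDA-MB-231 by 1.34 ± 0.09, 1.53 ± 0.11 and 0.94 ± 0.12. Within the complex, 3 of 7 members were higher in MDA-MB-231 and 3 were lower. The lines differ in origin and culture, whose parts in these differences were not tested.

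**Figure D1:**
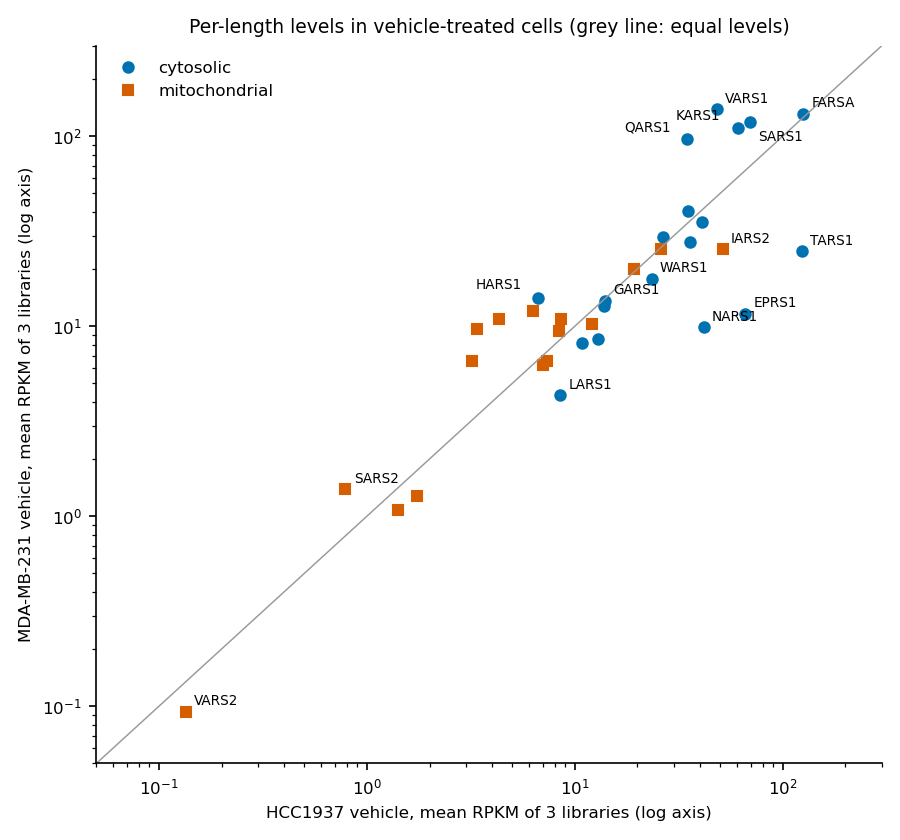
Mean RPKM of each synthetase gene in vehicle-treated HCC1937 (x axis) and MDA-MB-231 cells (y axis), 3 libraries each, both on log axes and scaled together, with cytosolic and mitochondrial members marked apart and a grey line at equal levels. EPRS1, TARS1 and NARS1 lie far below the line, and QARS1, VARS1, KARS1 and SARS1 lie above it.

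The comparison of MDA-MB-231 cells given bortezomib with a second agent against vehicle cells asked how synthetase mRNAs responded to these combinations. CARS1, SARS1, MARS1, YARS1 and WARS1 rose in both arms. Of the mitochondrial members, RARS2 and HARS2 also rose in both, while MARS2 and IARS2 fell. With bortezomib plus TM, 10 of 19 cytosolic members were called higher and 2 lower, and 3 of 16 mitochondrial members were higher and 5 lower. With bortezomib plus AMD3100 the counts were 9 and 2 among cytosolic members and 2 and 7 among mitochondrial members. Over all 16498 genes tested, 24.1% were called higher and 27.6% lower in the first arm, and 22.3% and 24.2% in the second. The median change was 0.39 for cytosolic and -0.20 for mitochondrial members in the first arm, and 0.62 and -0.39 in the second, beside -0.09 and -0.05 for all tested genes. Both arms were compared with the same 3 vehicle libraries.

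Summed over the 19 cytosolic genes, the level was 3476 to 3729 CPM in the vehicle libraries, 5069 to 5246 with bortezomib plus TM and 4941 to 5243 with bortezomib plus AMD3100. The 16 mitochondrial genes summed to 572 to 606 CPM in vehicle libraries, 496 to 534 and 489 to 502. Neither sum overlapped between vehicle and treated libraries. Much of the mitochondrial decrease came from IARS2, CARS2 and MARS2, whose changes are given below, so the sum does not describe every member. RARS2 and HARS2 rose. The median cytosolic change minus the median mitochondrial change was 0.59 and 1.01 in the 2 arms. Taken library by library against the vehicle mean, the median cytosolic member was at 0.30, 0.39 and 0.72 with bortezomib plus TM and at 0.66, 0.61 and 0.32 with bortezomib plus AMD3100, in replicate order, all above 0.

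The largest cytosolic increases were in genes for cysteine, serine, methionine and tyrosine charging. CARS1 (chromosome 11, 3000922 to 3057613, GENCODE v29 on GRCh38), the cysteinyl enzyme, stood at 59.9, 67.3 and 57.8 CPM in vehicle libraries, 164, 183 and 159 with bortezomib plus TM, and 161, 160 and 167 with bortezomib plus AMD3100. All 6 treated libraries lay above all vehicle libraries, with changes of 1.45 ± 0.10 (adjusted p = 4.2e-07, edgeR) and 1.40 ± 0.10. SARS1 (chromosome 1, 109213918 to 109238169), the seryl enzyme, went from 330, 358 and 335 CPM to 951, 895 and 806 and to 817, 743 and 782. Its increase was 2.59-fold in the first arm and 2.29-fold in the second, again without overlap.

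MARS1 (chromosome 12, 57475445 to 57517569), the methionyl enzyme and a member of the complex, stood at 208, 235 and 193 CPM in vehicle libraries, 533, 516 and 464 in the first arm and 477, 459 and 516 in the second. The changes were 1.25 ± 0.10 and 1.19 ± 0.10. MARS1 overlaps DDIT3 on the opposite strand, and strandedness of the counting was not given in the sources used here. DDIT3 was counted at 3.39 ± 0.116 CPM in vehicle and 18 ± 2.44 and 19 ± 0.779 in treated libraries (SD, n = 3). The part of DDIT3 reads in the MARS1 values was not tested. Other members also overlap a protein-coding gene on the opposite strand. Among them are YARS1 (S100PBP), WARS1 (WDR25), KARS1 (TERF2IP), CARS2 (ING1), EARS2 (UBFD1) and SARS2 (MRPS12). The part of those genes' reads was not tested either. YARS1 (chromosome 1, 32775237 to 32818153), the tyrosyl enzyme, rose from 214, 229 and 208 CPM to 514, 472 and 410 and to 448, 441 and 503, a change of 1.10 ± 0.10 in each arm. WARS1 (chromosome 14, 100333788 to 100376805), the tryptophanyl enzyme, was at 87.5, 86.2 and 80.5 CPM in vehicle libraries, 160, 165 and 165 in the first arm and 176, 161 and 175 in the second. Its changes of 0.94 ± 0.09 and 1.01 ± 0.09 were also free of overlap.

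HARS1 (histidine) and AARS1 (alanine) rose by 0.75 and 0.53 in the first arm and 0.66 and 0.56 in the second. GARS1 was at 176, 171 and 185 CPM in vehicle libraries, 220, 248 and 293 with bortezomib plus TM and 311, 278 and 233 with bortezomib plus AMD3100, called higher in both arms (0.52 ± 0.13 and 0.63 ± 0.13). KARS1 was at 329, 321 and 355 CPM against 412, 433 and 434 and 412, 389 and 368. It was called in the first arm (0.35 ± 0.09, adjusted p = 0.0051, edgeR), while in the second its value was 0.22 ± 0.09 (adjusted p = 0.056, and 0.049 under median-of-ratios scaling and in limma-voom). QARS1 was at 334, 372 and 310 CPM against 489, 471 and 372 and 385, 371 and 423, with values of 0.39 ± 0.12 (adjusted p = 0.016) and 0.21 ± 0.12 (adjusted p = 0.16). The QARS1 call in the first arm was lost when any one of 4 libraries was left out (vehicle replicate 1 or 3, or bortezomib plus TM replicate 1 or 2), with an adjusted p of at most 0.064. In both arms VARS1 (-0.55 ± 0.12 and -0.49 ± 0.12) and FARSB, the beta subunit of the phenylalanyl enzyme (-1.12 ± 0.20 and -0.99 ± 0.20), were lower, while FARSA, its alpha subunit, had values of -0.08 ± 0.14 and -0.21 ± 0.14 that were not called.

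**Figure D2:**
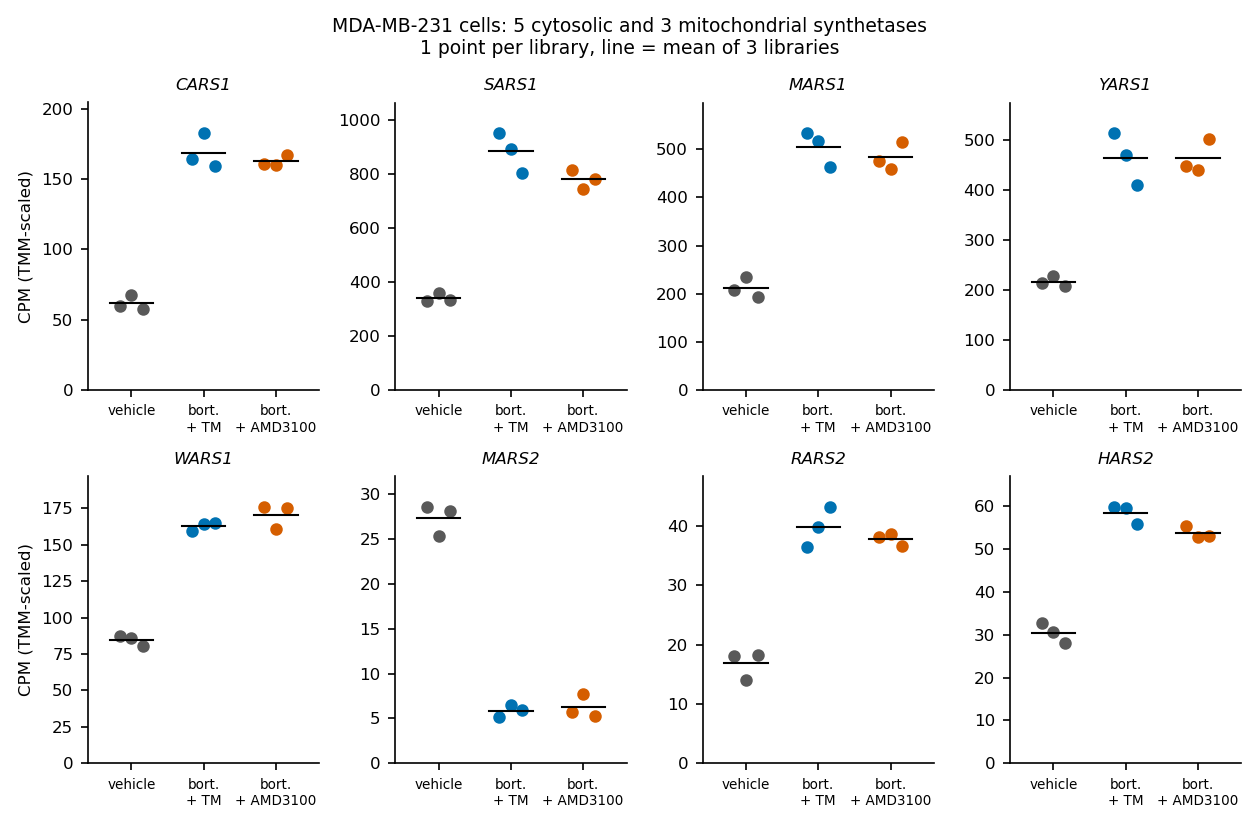
CPM per library of named synthetase genes in MDA-MB-231 cells, one panel per gene, with vehicle, bortezomib plus TM and bortezomib plus AMD3100 on the x axis, 1 point per library and a line at the mean of 3. SARS1 stands between 330 and 358 in vehicle libraries and between 743 and 951 in treated ones, and MARS2 falls from at least 25.4 to at most 7.75.

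Members of the complex gave mixed results. Of the 7, the called ones were KARS1, MARS1 and QARS1 in the first arm and MARS1 in the second, all higher. EPRS1, TARS1, NARS1 and RARS1 (arginine) varied more among the treated libraries than the members above. EPRS1 was at 50.8, 34.7 and 53.7 CPM in vehicle libraries, 27.8, 38.5 and 92.1 with bortezomib plus TM and 86.1, 79.2 and 48.7 with bortezomib plus AMD3100. TARS1 showed the same order of libraries, at 79.5, 56.6 and 101 CPM against 53.7, 66.4 and 175 and 156, 141 and 77.6. In these 4 genes the highest treated libraries were replicate 3 of the first arm and replicates 1 and 2 of the second, and vehicle and treated libraries overlapped in all 4 genes in the first arm and in EPRS1, TARS1 and RARS1 in the second. The SE of the change was correspondingly wide (0.37 for EPRS1 and 0.40 for TARS1), and of the 4 genes NARS1 alone was called, in the second arm (0.97 ± 0.31, adjusted p = 0.023, edgeR). That call was lost without vehicle replicate 1 or 2 or without bortezomib plus AMD3100 replicate 1 or 2 (adjusted p from 0.067 to 0.085), and in the first arm NARS1 (0.75 ± 0.31) was called under median-of-ratios scaling, by DESeq2 and without a filter (adjusted p = 0.027, 0.0076 and 1e-05). In the second arm EPRS1 (0.62 ± 0.37) and TARS1 (0.66 ± 0.40) were called with the compared groups fitted alone (adjusted p = 0.030 and 0.043) and without a filter (0.00017 and 6.9e-06). What set those 3 libraries apart was not tested.

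**Figure D3:**
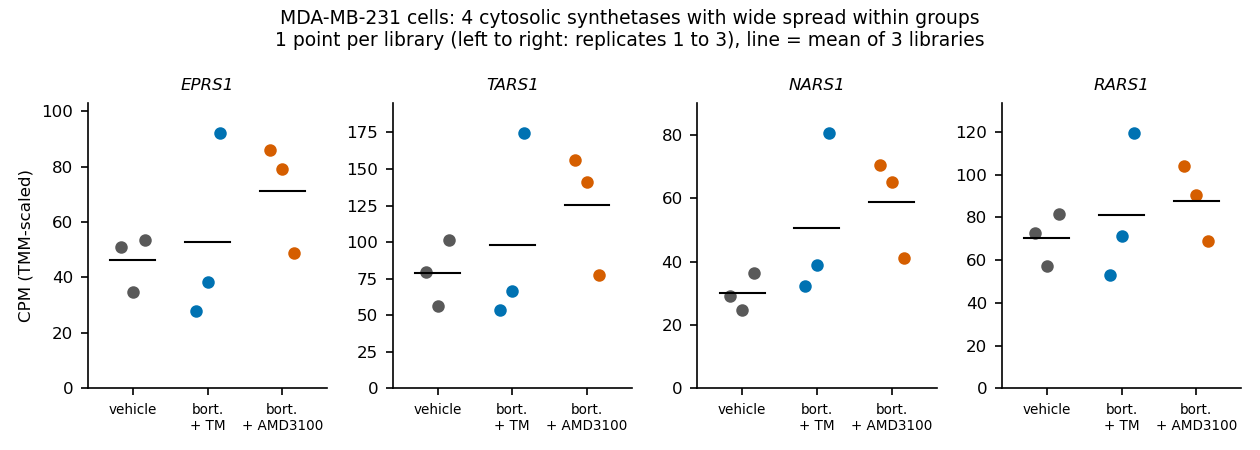
CPM per library of synthetase genes with a wide spread in treated MDA-MB-231 cells, one panel per gene, with 1 point per library (replicates 1 to 3 from left to right) and a line at the mean of 3. EPRS1 runs from 27.8 to 92.1 within the bortezomib plus TM group, against 34.7 to 53.7 in vehicle libraries.

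Mitochondrial members were called in both directions, as were genes at large. Of 16, 3 were higher and 5 lower in the first arm, beside 24.1% and 27.6% of all genes. In the second arm 2 were higher and 7 lower, beside 22.3% and 24.2%. MARS2 (chromosome 2, 197705369 to 197708387), the mitochondrial methionyl enzyme, was at 28.6, 25.4 and 28.1 CPM in vehicle libraries, 5.13, 6.5 and 6 with bortezomib plus TM and 5.75, 7.75 and 5.33 with bortezomib plus AMD3100. It was 4.66-fold lower in the first arm (adjusted p = 1.7e-06, edgeR) and 4.36-fold lower in the second, opposite in direction to its cytosolic partner MARS1. IARS2 (isoleucine) went from 87.8, 58.9 and 89.7 CPM to 14.9, 18 and 27.8 and to 25.4, 30.8 and 23.4, changes of -1.96 ± 0.23 and -1.57 ± 0.23. Its cytosolic partner IARS1 had values of 0.08 ± 0.15 and 0.34 ± 0.15 that were not called.

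CARS2 (cysteine) was lower in each arm (-0.85 ± 0.13 in both), where cytosolic CARS1 was higher. TARS2 (threonine) was lower in both arms (-0.35 ± 0.12 and -0.55 ± 0.12), and EARS2, NARS2 and PARS2 were called lower with bortezomib plus AMD3100 (-0.37, -0.52 and -0.50), against values of -0.26, -0.19 and -0.36 in the TM arm. The calls of TARS2 in the first arm and of EARS2, NARS2 and PARS2 in the second were lost when single libraries were left out, vehicle replicate 1 among them in each case (adjusted p = 0.082, 0.105, 0.077 and 0.112 without it, edgeR). TARS2 in the first arm was also not called under median-of-ratios scaling (-0.27, adjusted p = 0.13), in DESeq2 (0.18), without a filter or with the groups alone. EARS2 and PARS2 in the second arm were not called under that scaling (0.070 and 0.068), in DESeq2 (0.089 and 0.064) or without a filter, and NARS2 was not called without a filter (0.064). VARS2 was called lower with bortezomib plus TM on very few reads, at 29, 26 and 19 counts in vehicle libraries against 2, 2 and 9. VARS2 overlaps GTF2H4 on the same strand.

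Higher in both arms were RARS2 and HARS2, the mitochondrial arginyl and histidyl enzymes. RARS2 (chromosome 6, 87514378 to 87590003) rose from 18.1, 14.1 and 18.3 CPM to 36.5, 39.7 and 43.2 and to 38.1, 38.6 and 36.6, changes of 1.24 ± 0.14 and 1.17 ± 0.14. HARS2 (chromosome 5, 140691426 to 140699318) rose from 32.7, 30.7 and 28.0 CPM to 59.9, 59.6 and 55.9 and to 55.3, 52.8 and 53.1, changes of 0.94 ± 0.11 and 0.82 ± 0.11. HARS2 overlaps HARS1 head to head, and reads of the shared stretch cannot be told apart without strand. FARS2 (phenylalanine) was higher with bortezomib plus TM (0.66 ± 0.16), with a value of 0.24 ± 0.16 in the other arm.

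The 2 combinations were then set against each other in MDA-MB-231. Of 35 members 0 were called, as were 0% of all genes, in edgeR's quasi-likelihood test. At an unadjusted p under 0.05 there were 1464 genes and 1 member, FARS2 (-0.43 ± 0.16, adjusted p = 0.51, edgeR), while DESeq2 called 64 genes. SARS1 differed by -0.18 ± 0.09, IARS1 by 0.26 ± 0.15, LARS1 by 0.41 ± 0.24 and NARS2 by -0.33 ± 0.16 (AMD3100 arm minus TM arm), none of them called. For WARS1, GARS1, KARS1 and QARS1 the differences were 0.07 ± 0.09, 0.11 ± 0.13, -0.13 ± 0.09 and -0.18 ± 0.12. The design had 3 libraries a group, and a missed threshold does not show that the arms act alike.

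Genes of the amino acid response moved in MDA-MB-231 beside the cytosolic synthetases. Of 18 tested members of this list (regulators and targets of ATF4, synthetases excluded), 15 were higher and 1 lower in each arm, with medians of 1.32 and 1.27. Over all genes tested, 24.1% were called higher and 27.6% lower in the first arm, and 22.3% and 24.2% in the second. The transporter counts below stand beside the same shares. ATF3 rose by 5.45 and 5.25, ATF4 by 2.35 and 2.24, and SESN2, a stress-induced inhibitor of mTORC1 signalling, by 3.48 in each. PHGDH, the first enzyme of serine synthesis, rose by 1.87 with bortezomib plus TM, and EIF2AK4, the kinase GCN2, fell by 1.15 on the log2 scale in that arm. Of 10 amino acid transporters, 6 were higher and 2 lower in the first arm and 7 and 1 in the second. SLC3A2, the heavy chain of several exchangers, rose by 2.68 and 2.60, and SLC7A11, the cystine importer, by 1.81 and 1.89.

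Partners of the synthetases were called in both directions, as were genes at large. Of 7 tested genes for the complex scaffold and transfer RNA delivery, 3 were higher and 1 lower in the first arm and 1 and 1 in the second. These counts, and those of the next lists, stand beside 24.1% of all genes higher and 27.6% lower in the first arm and 22.3% and 24.2% in the second, and are no result about the lists. EEF1B2, an exchange factor of the elongation complex, rose by 0.97 and 0.71, and AIMP2, a scaffold protein of the multi-synthetase complex, fell by 1.04 and 1.07. Of 11 factors for mitochondrial transfer RNA charging and translation, 5 were higher and 2 lower, then 4 and 3. GATC, a subunit of the amidotransferase that makes mitochondrial glutaminyl transfer RNA, rose by 1.32 and 1.10, and MTFMT, which formylates the methionyl initiator that MARS2 charges, fell by 0.88 and 0.80. Of 7 interferon-gamma response genes tested beside WARS1, 3 were higher and 2 lower in each arm, with IRF1 up by 1.27 and 1.13 and GBP2 down (-0.63 and -0.56). The heat shock gene HSPA1A rose by 6.21 and 6.12 and PSMB5 by 1.30 and 1.14 in the same libraries, and the part of either in the synthetase changes was not tested.

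Cytosolic genes with and without the promoter letters were described side by side. Of the 7 genes with TGATGNAA, 4 were called higher with bortezomib plus TM (AARS1, CARS1, GARS1 and MARS1) and 5 with bortezomib plus AMD3100 (these and NARS1), with 0 lower and medians of 0.53 and 0.66. Of the 9 cytosolic genes whose window lacked it, 5 and 3 were higher and 1 and 1 lower, with medians of 0.35 and 0.32. Over all genes tested, 24.1% were called higher and 27.6% lower in the first arm, and 22.3% and 24.2% in the second. In the first arm 4 of 7 genes with the letters stood beside 5 of 9 without them. These counts are a description and no result about the letters. SARS1, WARS1 and HARS1 were among the called genes without the letters, and IARS1 and TARS1 carried them without being called. YARS2, the mitochondrial gene with a match, had values of -0.05 ± 0.12 and -0.04 ± 0.12.

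In HCC1937, TM without bortezomib lowered QARS1, LARS1, VARS1 and IARS2 and raised SARS1 and WARS1. With all 9 libraries, 2 of 19 cytosolic members were higher and 3 lower, and 0 of 16 mitochondrial members were higher and 1 lower, beside 2.96% and 4.11% of all 19461 tested genes. Without AMD3100 replicate 1 the estimated spread between libraries was far smaller: 10 and 8 cytosolic and 2 and 8 mitochondrial members were called, beside 19.4% and 21.4% of 20398 genes. Leaving out any one vehicle or TM library in place of it left 1 or 2 members called, beside 406 to 462 of all genes. The fitted changes hardly depended on that choice, with cytosolic medians of 0.09 and 0.10 and a mitochondrial median of -0.22 in both fits.

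QARS1 stood at 182, 177 and 185 CPM in vehicle libraries and 107, 117 and 105 with TM, a decrease of 1.65-fold (adjusted p = 0.0023 with 9 libraries and 4.8e-13 without AMD3100 replicate 1, edgeR). LARS1, the leucyl enzyme that also senses leucine for mTORC1, went from 191, 198 and 199 CPM to 119, 121 and 115 (-0.73 ± 0.14). VARS1 went from 313, 308 and 325 CPM to 206, 205 and 205 (-0.62 ± 0.10). In all 3 genes every TM library lay below every vehicle library. SARS1 rose from 298, 299 and 301 CPM to 422, 433 and 408, and WARS1 from 159, 165 and 174 to 234, 233 and 234, a change of 0.49 in both genes (SE 0.08 and 0.09).

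GARS1 was at 268, 272 and 276 CPM in vehicle libraries and 448, 432 and 443 with TM, a change of 0.70 ± 0.24 that was not called with 9 libraries (adjusted p = 0.14, edgeR) and was called without AMD3100 replicate 1 (0.70 ± 0.04, adjusted p = 1.4e-14). Its vehicle and TM libraries did not overlap in either case. KARS1 was at 265, 285 and 273 CPM against 226, 239 and 235, with the same pattern of calls (-0.23 ± 0.18, adjusted p = 0.55, and -0.24 ± 0.04, adjusted p = 2.3e-05). CARS1, the leading gene in MDA-MB-231, went from 122, 120 and 120 CPM to 169, 168 and 167 (0.48 ± 0.12, adjusted p = 0.0502 with 9 libraries, and 0.48 ± 0.04, adjusted p = 4.1e-10, without AMD3100 replicate 1).

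Mitochondrial members summed to 866, 860 and 850 CPM in HCC1937 vehicle libraries and to 705, 688 and 697 with TM. IARS2, at 244, 242 and 225 CPM in vehicle libraries and 160, 151 and 158 with TM, was the called member with all 9 libraries (-0.60 ± 0.12, adjusted p = 0.017, edgeR). FARS2 was at 38.2, 37.1 and 38.8 CPM against 29.3, 24.6 and 29, not called with 9 libraries (-0.46 ± 0.12, adjusted p = 0.057) and called without AMD3100 replicate 1 (adjusted p = 6.8e-06). In the 8-library fit TARS2 (-0.68 ± 0.06), CARS2 (-0.22 ± 0.04) and MARS2 (-0.28 ± 0.08) were also lower, and HARS2 (0.19 ± 0.06) was higher. VARS2 was called higher there on few reads, at 38, 38 and 42 counts in vehicle libraries against 165, 117 and 121, and it shares its locus with GTF2H4. The members not called in either fit were RARS1, AARS2, EARS2, LARS2, PARS2, SARS2 and YARS2.

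**Figure D4:**
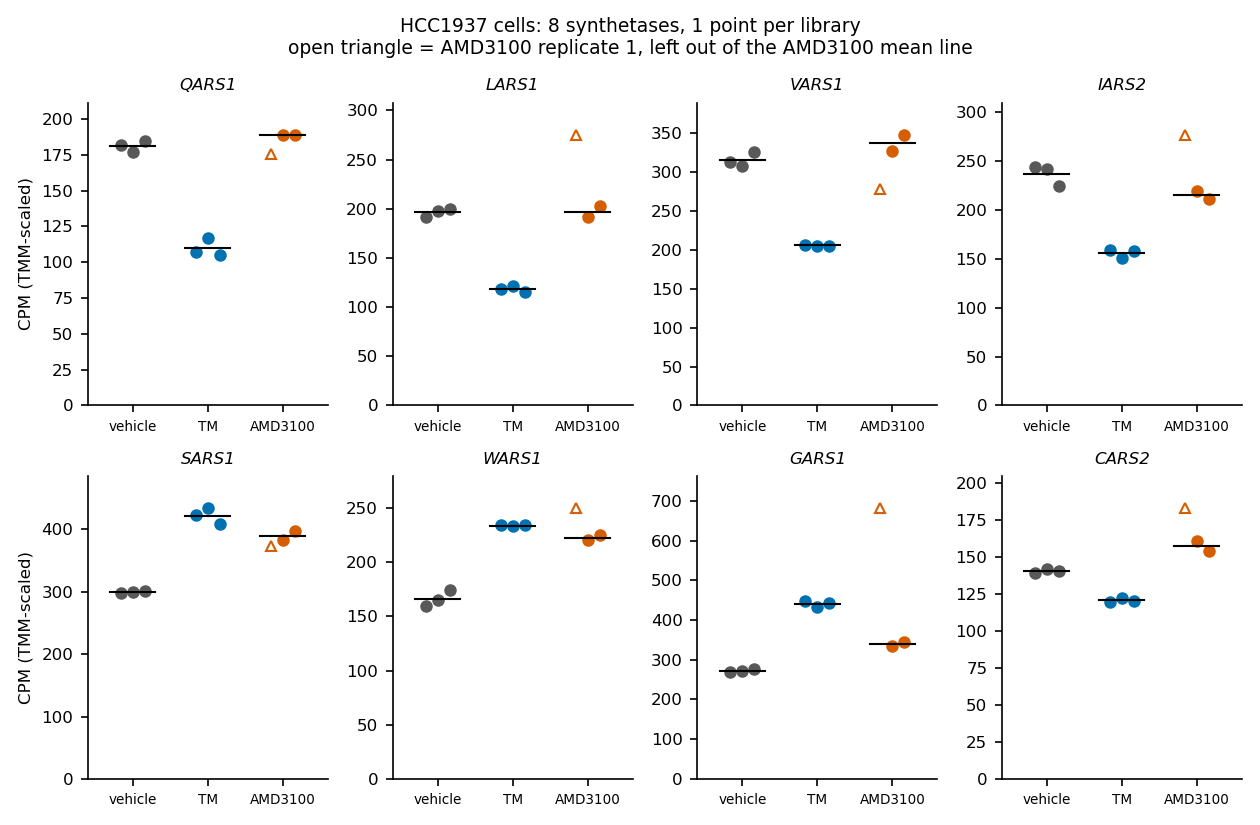
CPM per library of named synthetase genes in HCC1937 cells, one panel per gene, with vehicle, TM and AMD3100 on the x axis, 1 point per library and a line at the mean, from which AMD3100 replicate 1 (open triangle) is left out. QARS1 stands between 177 and 185 in vehicle libraries and between 105 and 117 with TM, and AMD3100 replicate 1 stands apart for GARS1, at 681 against 335 and 344.

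AMD3100 alone in HCC1937 gave 0 called members and 0% of all genes called with 9 libraries. At an unadjusted p under 0.05 there were 951 genes and 8 members in edgeR, and DESeq2 called 16 genes. AMD3100 replicate 1 departed from the other AMD3100 libraries in many members, as in GARS1 (681 CPM against 335 and 344), TARS1 (1042 against 605 and 604) and KARS1 (454 against 276 and 280). Without it, 9 of 19 cytosolic members were higher and 0 lower and 1 of 16 mitochondrial members was higher and 0 lower, beside 5.39% and 2.76% of all genes, with medians of 0.14 and -0.02. WARS1 was at 250, 220 and 225 CPM and SARS1 at 373, 383 and 397 in the AMD3100 libraries, above every vehicle library. Their changes were 0.48 ± 0.09 and 0.36 ± 0.08 with 9 libraries (not called) and 0.44 ± 0.05 and 0.40 ± 0.04 without replicate 1 (adjusted p = 4.9e-07 and 4e-07, edgeR).

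The other cytosolic members higher without that library were CARS1 (0.46), GARS1 (0.34), AARS1 (0.33), YARS1 (0.27), MARS1 (0.25), HARS1 (0.18) and EPRS1 (0.16), and the mitochondrial one was CARS2 (0.18 ± 0.05). MARS2 had a value of -0.30 ± 0.10 with 9 libraries and -0.28 ± 0.09 with 8, called in neither. KARS1 had values of 0.29 ± 0.18 and 0.04 ± 0.04, and QARS1 of 0.02 ± 0.09 and 0.08 ± 0.05. For KARS1 the 9-library value therefore rested on replicate 1.

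Against TM, AMD3100 gave higher levels of 4 cytosolic and 3 mitochondrial members and lower levels of 0, beside 4.61% and 3.6% of all genes. Without AMD3100 replicate 1 the counts were 8 higher and 1 lower among cytosolic members and 6 and 2 among mitochondrial ones, beside 19.7% and 16.8%. Without any one TM library 2 members were called, beside 373 to 395 of all genes. QARS1, LARS1 and VARS1, which TM had lowered, led this comparison with FARSB. QARS1 was at 176, 189 and 189 CPM with AMD3100 (0.75 ± 0.09), LARS1 at 275, 192 and 202 (0.91 ± 0.14, and 0.75 ± 0.05 without replicate 1), VARS1 at 278, 327 and 348 (0.63 ± 0.10) and FARSB at 148, 101 and 104 (0.82 ± 0.15, and 0.64 ± 0.06). Among mitochondrial members IARS2 (0.60 ± 0.12), CARS2 (0.46 ± 0.09) and FARS2 (0.57 ± 0.12) were called. GARS1 went from 0.04 ± 0.24 to -0.36 ± 0.04 when replicate 1 was left out, and WARS1 had a value of -0.01 ± 0.09. These contrasts share the TM libraries with the comparison above.

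Other genes of amino acid supply in HCC1937 gave the following counts. In the amino acid response list 5 of 19 members were higher with TM and 0 lower (median 0.48), and 14 higher and 1 lower without AMD3100 replicate 1. The share of all genes called higher and lower with TM was 2.96% and 4.11% with 9 libraries and 19.4% and 21.4% with 8, so the 2 counts cannot be set against each other. SESN2 rose by 1.14, NUPR1, a stress-induced chromatin protein, by 1.47, and TRIB3, a pseudokinase target of ATF4, by 0.53. With AMD3100 the count was 0, beside 0% of all genes, and 11 higher and 0 lower without replicate 1, beside 5.39% and 2.76%. Of 10 transporters, 4 were higher and 1 lower with TM, SLC1A5, the glutamine importer, by 0.76 and SLC7A11 by 1.15, while SLC43A1, a leucine carrier, fell by 0.70. With AMD3100 0 were called, and without replicate 1 7 were higher and 0 lower. Of 8 interferon-gamma response genes 0 were higher with TM and 2 lower (PSMB9 -1.43, TAP1 -0.48), while WARS1 was higher.

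The scaffold and delivery list had 0 of 7 members called with TM in HCC1937, and 1 higher (XPOT, the exporter of transfer RNA, 0.31) and 5 lower without AMD3100 replicate 1. The mitochondrial factor list had 0 of 11 called, and 1 higher and 6 lower in the 8-library fit, among them MTFMT (-0.67). In the 8-library fit 19.4% of all genes were called higher and 21.4% lower.

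The 4T1 tumours showed no called member in any of their 3 comparisons. With bortezomib plus TM, with bortezomib plus AMD3100 and between these arms, 0 of 35 members and 0% of all 15846 tested genes were called by edgeR. At an unadjusted p under 0.05 there were 688, 1144 and 454 genes and 0, 0 and 0 members, and DESeq2 called 3, 21 and 4 genes. The medians of cytosolic members were -0.08, -0.03 and 0.05 and those of mitochondrial members -0.07, 0.11 and 0.14. These are whole tumours, in which fewer cells of a type and less RNA per cell cannot be told apart.

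Hars1 was at 71.2, 87.0 and 83.7 CPM in vehicle tumours, 65.3, 71.2 and 72.6 with bortezomib plus TM and 73.1, 77.6 and 64.1 with bortezomib plus AMD3100, with values of -0.21 ± 0.11 (adjusted p = 0.89, edgeR) and -0.17 ± 0.11. Wars1 was at 147, 138 and 165 CPM against 133, 148 and 154 and 153, 146 and 131, overlapping ranges with values of -0.05 ± 0.11 and -0.06 ± 0.11. Gars1 overlapped too, at 164, 189 and 226 CPM against 151, 216 and 208 and 185, 218 and 183. Kars1 ran from 264 to 271 CPM in vehicle tumours, from 210 to 301 and from 221 to 320, and Qars1 from 237 to 259, from 202 to 249 and from 199 to 234. In the TM arm Lars1 (-0.16 ± 0.11), Yars1 (0.19 ± 0.15) and Nars2 (-0.19 ± 0.14) were likewise not called, and in the AMD3100 arm Aars1 (0.25 ± 0.16), Sars2 (0.31 ± 0.22) and Tars2 (0.15 ± 0.11).

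Lars2, the mitochondrial leucyl enzyme, had the highest CPM of the members in this table and the widest range. It was at 898, 1059 and 1378 CPM in vehicle tumours, 633, 467 and 1299 with bortezomib plus TM and 899, 1241 and 1464 with bortezomib plus AMD3100. The values of -0.48 ± 0.36 and 0.11 ± 0.36 were not called, and the difference between the arms was 0.59 ± 0.36, also not called. The next highest mitochondrial member in vehicle tumours, Iars2, ran from 92.0 to 109 CPM.

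Cell type markers varied among these tumours beside the members. The summed level of tumour epithelium markers ran from 1472 to 2398 CPM in vehicle tumours, 1069 to 1921 with bortezomib plus TM and 973 to 1253 with bortezomib plus AMD3100. B cell markers ran from 1.96 to 107, 1.69 to 435 and 4.51 to 630 CPM, T cell markers from 18.8 to 99.3, 49.2 to 286 and 52.6 to 453, and macrophage markers from 1906 to 2012, 988 to 1703 and 1241 to 1604. No gene of these 4 lists was called, nor was any of the amino acid response or transporter lists. The part of cell composition in the synthetase values was not tested.

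**Figure D5:**
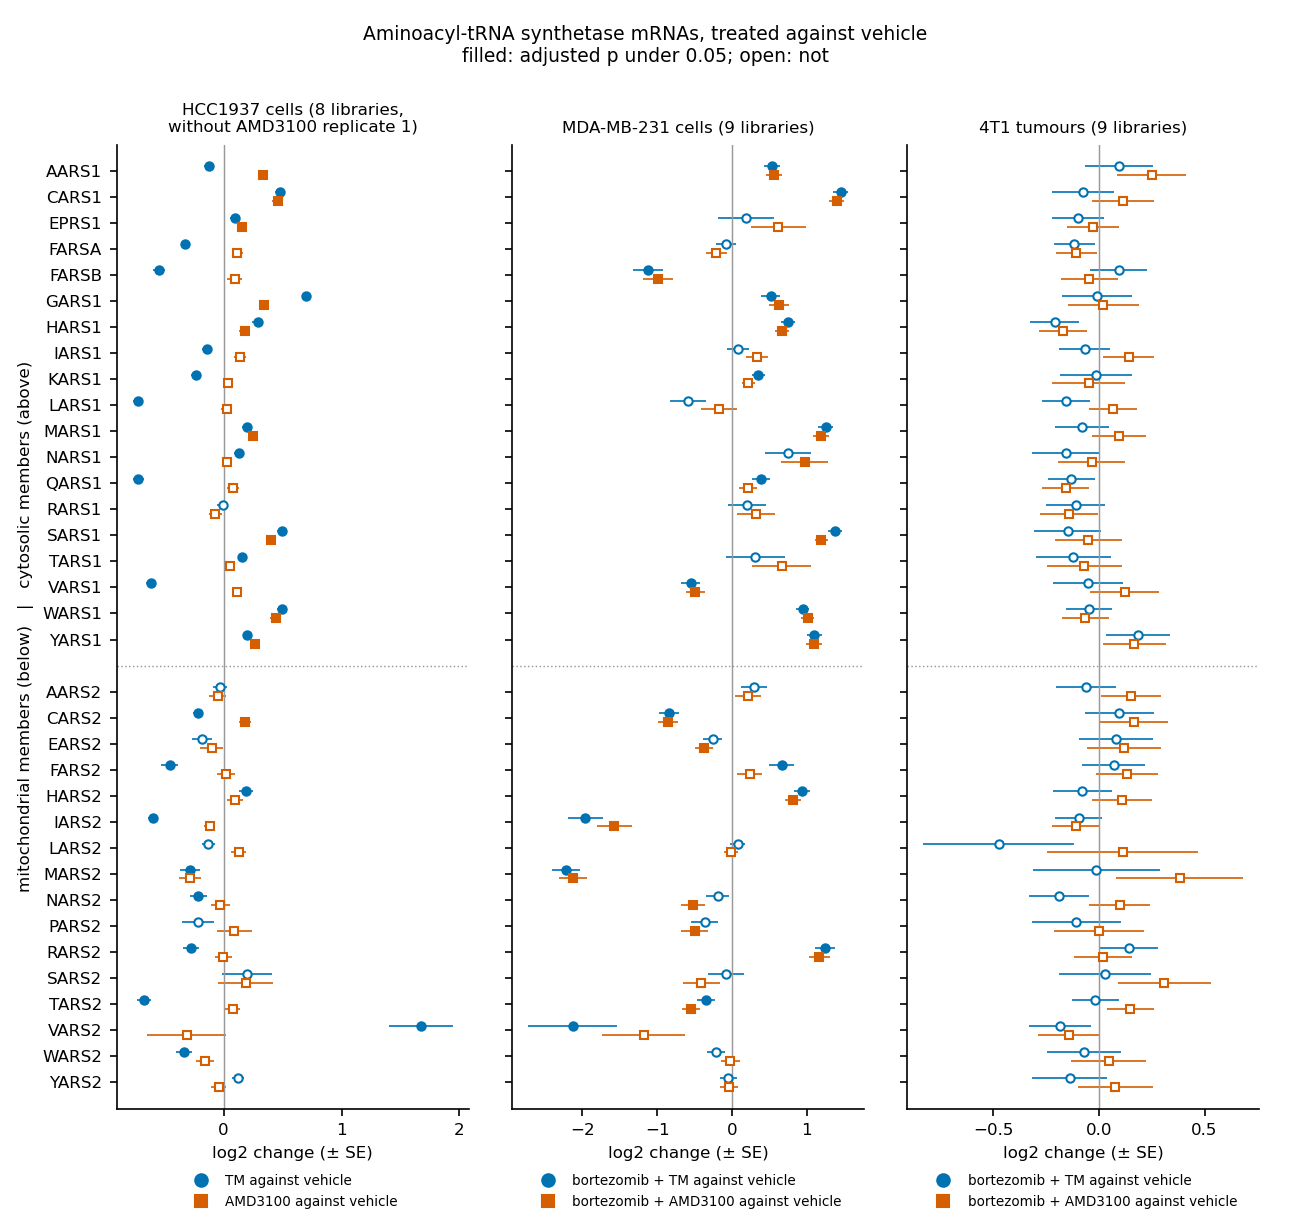
Log2 change against vehicle with SE (x axis) of the 35 synthetase genes (y axis, cytosolic above, mitochondrial below), one panel each for HCC1937 (8 libraries, without AMD3100 replicate 1), MDA-MB-231 and 4T1, circles for the TM arms and squares for the AMD3100 arms, filled where the adjusted p was under 0.05 and open where it was not. In MDA-MB-231 the points spread from -2.22 to 1.45, while in 4T1 all points are open and lie between -0.48 and 0.38.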

How the data were processed

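The authors deposited whole-number read counts per gene for each library, made with featureCounts 2.0.1 from paired-end poly(A) libraries on GRCh38 and GRCm38, with MultiQC 1.11 also named, per the submitters' processing notes. For the aligner, the annotation and the strand setting, nothing is stated: not given in the sources used here. Of the counts from 1 to 20, 56.9% to 66.1% were even in each library, so a count need not be 1 independent fragment. The human tables also held deposited gene lengths, from which RPKM was computed.

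Each table was fitted once over its 9 libraries with edgeR 4.0.16 in R 4.3.3 (filterByExpr, TMM scaling, quasi-likelihood test, Benjamini-Hochberg adjustment over all tested genes), and the 6 human vehicle libraries were fitted together. The p-values weigh a difference between groups against the spread between the libraries of the fit. Alternatives were limma 3.58.1 (voom), DESeq2 1.42.0, median-of-ratios scaling, no filter on low counts, a 2-fold minimum, a replicate block, the compared groups alone and each library left out. The fit was tested on simulated data.

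The members and lists were chosen with earlier results of these data known. Named members were the 5 cytosolic and 3 mitochondrial called members with the smallest p in each comparison (where fewer than 3 or 2 were called, the 3 and 2 with the smallest p), with WARS1, GARS1, KARS1 and QARS1 always given. From other lists up to 4 called genes with the smallest p were named. CARS1 in HCC1937, members outside the rule and DDIT3 were named after their values were seen.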

Additional observations from a re-analysis of the deposited data

Results flagged for a closer look

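Some members lay on opposite sides of the vehicle mean in MDA-MB-231 cells and 4T1 tumours given bortezomib combinations. Every treated library of one model was on one side of its vehicle mean, and every treated library of the other on the opposite side. How many of all genes meet this rule was not counted. Treated and vehicle libraries can still overlap under it, as for HARS1 in 4T1. The difference between the models was not tested, and the models differ in species, dose and setting. With bortezomib plus TM this held for HARS1, at a mean log2 deviation of 0.75 in MDA-MB-231 and -0.21 in 4T1, a gap of 0.96. With bortezomib plus AMD3100 it held for HARS1 again, by 0.836 (0.66 against -0.17), and for QARS1 by 0.377 (0.21 against -0.16). Among mitochondrial members it held for MARS2 with a gap of -2.52 (-2.14 against 0.38), SARS2 with -0.706 (-0.37 against 0.33) and TARS2 with -0.699 (-0.55 against 0.15). MARS2 in 4T1 rested on low levels, between 3.14 and 7.95 CPM. No member was called in 4T1, and QARS1 and SARS2 were not called in the bortezomib plus AMD3100 arm of MDA-MB-231.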

How the results depend on the processing

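With a 2-fold minimum, members called fell to 0 for TM and for AMD3100 against TM in HCC1937, 9 for bortezomib plus TM, 8 for bortezomib plus AMD3100 and 10 between the vehicle lines. How many of all genes met that minimum was not counted, so these counts have no share to stand beside. For TM in HCC1937, DESeq2 called 11 members and 2061 genes. The groups fitted alone called 28 members and 8336 genes, against 1376 genes in the fit of 9 libraries. For AMD3100 against vehicle in HCC1937, 1 member and 161 genes were called without a filter, and 1 member and 16 genes by DESeq2. For AMD3100 against TM, the groups alone gave 1 member and 252 genes, and DESeq2 gave 2529 genes, against 1599. The stricter motif left 0 mitochondrial genes. Leaving out 1 library at a time, the members called ran from 1 to 28 for TM, 0 to 10 for AMD3100 and 2 to 17 for AMD3100 against TM in HCC1937, from 18 to 21 and 16 to 21 in the arms of MDA-MB-231, from 21 to 28 between the vehicle lines, and stayed at 0 elsewhere. The same HCC1937 fits called 406 to 8318, 0 to 1661 and 373 to 7442 of all genes. In the arms of MDA-MB-231 they called 7238 to 8741 and 6363 to 7078 genes, and between the vehicle lines 14372 to 15676. The cytosolic minus mitochondrial median ran from 0.28 to 0.32, 0.15 to 0.28 and -0.12 to 0.08 in the HCC1937 comparisons, from 0.53 to 0.74, 0.72 to 1.09 and 0.034 to 0.16 in those of MDA-MB-231, from -0.09 to 0.13, -0.23 to -0.05 and -0.21 to 0.01 in those of 4T1, and from -0.20 to -0.064 between the vehicle lines.

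Signs turned mostly in values near 0. For AMD3100 against TM in HCC1937, GARS1 was -0.049 without a filter, -0.0461 in limma-voom and -0.018 under the replicate block, and WARS1 was 0.0062 with the groups alone. Between the vehicle lines GARS1 was 0.011 under median-of-ratios scaling and 0.011 in DESeq2. Leaving out 1 library, QARS1 for AMD3100 in HCC1937 ran from -0.0059 to 0.077, WARS1 against TM from -0.050 to 0.015 and GARS1 against TM from -0.36 to 0.21, and GARS1 between the lines from -0.057 to 0.029. For GARS1 against TM, -0.36 was the value without AMD3100 replicate 1, a called decrease (adjusted p = 7.1e-08, edgeR). In 4T1 with bortezomib plus TM, WARS1 ran from -0.11 to 0.027, GARS1 from -0.11 to 0.14 and KARS1 from -0.12 to 0.13. With bortezomib plus AMD3100 WARS1 ran from -0.12 to 0.0100, GARS1 from -0.085 to 0.15 and KARS1 from -0.25 to 0.049. Between the 4T1 arms WARS1 ran from -0.093 to 0.044, GARS1 from -0.13 to 0.12, KARS1 from -0.24 to 0.073 and QARS1 from -0.12 to 0.046.

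The labels do not say whether replicate numbers pair the samples. The correlation of same-numbered deviations ran from -0.037 to 0.037 in HCC1937, -0.324 to 0.287 in MDA-MB-231 and -0.468 to 0.597 in 4T1. It was over 0.1 in 0, 2 and 3 of 9 pairs. With 3 libraries a group, these values cannot show whether samples were paired. Under the replicate block 5, 0 and 6 members were called in HCC1937, 19, 18 and 0 in MDA-MB-231, and 0 in each comparison of 4T1, and 5 calls of the fits without it were lost: WARS1 with TM (adjusted p = 0.052, edgeR) and CARS2 for AMD3100 against TM (0.064) in HCC1937, and TARS2 with bortezomib plus TM (0.059) and EARS2 and PARS2 with bortezomib plus AMD3100 (0.060 and 0.079) in MDA-MB-231. The block gave 718 genes for TM and 725 for AMD3100 against TM in HCC1937. In MDA-MB-231 it gave 7725 genes for bortezomib plus TM and 6833 for bortezomib plus AMD3100.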
